A study of Homo sapiens with 6 samples.

Results

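The genes described here are 58 components of autophagy and of the lysosome, chosen by name: autophagy factors, autophagy receptors, the transcription factors TFEB and TFE3, subunits of the vacuolar proton pump (V-ATPase), lysosomal membrane proteins, and lysosomal hydrolases with their cofactors. Cathepsins were not listed. Of the 58 genes, 57 had a row among the 12829 genes of the table, and GABARAP did not and was not analysed here. A mean of at least 0.5 FPKM (fragments per kilobase of gene, scaled to sequencing depth) was reached by 55 members, which were tested, and ATP6V0C and HEXA lay below it.

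In autophagy, a kinase complex and a lipid kinase complex start a membrane cup, small ubiquitin-like proteins of the ATG8 family are conjugated to its lipids, and receptors that bind ATG8 proteins bring in cargo. The closed vesicle fuses with a lysosome, whose lumen is acidified by the V-ATPase and holds the hydrolases that break down the cargo. TFEB and TFE3 switch on many lysosomal genes, and in growing cells they are held in the cytoplasm by the kinase mTORC1.

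The cells were HaCaT, an immortalised human keratinocyte line grown in DMEM with 10% serum at 37 °C and 5% CO2. The 3 control libraries came from cells labelled wild type and normal control. The 3 knockdown libraries came from cells with a short hairpin RNA against IQGAP2, a scaffold protein that binds calmodulin and actin. Whether the control cells carried another hairpin, and how many hairpins or clones were used, is not given in the labels. The series title names proliferation and the mTOR pathway as the study's interest. Libraries are labelled as biological replicates, with no word on whether cultures were separate, and p-values therefore cover only the spread between these libraries. In bulk RNA, fewer cells of a kind and less RNA per cell cannot be told apart.

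The reads recovered from the FPKM values summed to between 13957447 and 15122470 per control library and to between 12901037 and 15360758 per knockdown library. IQGAP2 itself stood at 0.196 ± 0.00547 FPKM in control and 0.0235 ± 0.00808 in knockdown (SD, n = 3), from 21 to 24 reads per control library and 2 to 4 reads per knockdown library. The log2 change of IQGAP2 on the log2(FPKM + 1) scale was -0.22 with an adjusted p of 0.0217 (limma). That scale shrinks changes at so low a level: the log2 change was -1.26 with a pseudocount of 0.1 and -2.86 by voom on recovered reads. The call of IQGAP2 ended without control replicate 1, 2 or 3 (adjusted p 0.0541, 0.0534 and 0.0519) or without knockdown replicate 3 (0.0556). The exact two-sided permutation p was 0.1, the smallest that 3 against 3 libraries can give. All 10 keratinocyte markers looked for were in the table, with sums of 6032 to 6094 FPKM in control and 5659 to 6274 in knockdown. Of the markers of other cells, 3 of 8 for fibroblasts were in the table and summed to 3.46 to 3.79 FPKM in control and 1.56 to 1.91 in knockdown. Melanocyte, endothelial and leukocyte markers in the table (1 of 6, 2 of 6 and 1 of 8) summed to less than 1 FPKM in every library. Knockdown replicate 2 stood apart: its root-mean-square log2 difference over all tested genes was 0.194 from replicate 1 and 0.187 from replicate 3, against 0.131 between those and 0.122 to 0.128 within control.

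Of all 11214 tested genes 3313 rose in knockdown (29.5%) and 3121 fell (27.8%), so that 57.4% were called at an adjusted p under 0.05 (limma on log2(FPKM + 1), Benjamini-Hochberg over all tested genes). Among the 55 members 14 rose, 19 fell and 22 did not pass, which is 60% called. That share lies near the share of all genes and is no result about the members. The groups did not overlap for 35 members (63.6%), near the 65.1% of all genes. Changes were small: the members' log2 changes ran from -0.64 to 0.65 with a median of -0.02, beside 0.01 for all tested genes. Of the members 2 (3.64%) passed 1.5-fold on this scale, beside 1070 of all tested genes (9.54%). Only 187 of all 11214 tested genes passed 2-fold, so the count of 0 among 55 members is no result about them. Called members were farthest from the control mean in knockdown replicate 2 for 23 of 33 genes. That count was not made for all genes and is no result about the members. Without knockdown replicate 2, 14 members rose and 16 fell, with 3 receptors higher and 6 hydrolases and cofactors lower. Of all 11214 tested genes 3250 then rose and 3212 fell.

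The deposited values summed to 271372 to 274709 FPKM in control libraries and to 234624 to 248082 in knockdown libraries. When every library was scaled to a common sum, the median of all genes moved to 0.14, with 4864 genes higher (43.4%) and 1838 lower (16.4%). The members then split into 25 higher and 11 lower, with a median of 0.13. Of the 33 called members, 21 kept their call and direction under all 15 alternative settings in which they were tested, 10 of them higher and 11 lower. The share of all called genes that kept their calls was not computed, so these counts are no result about the members. Calls that some settings ended are named as such beside the gene.

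**Figure D1:**
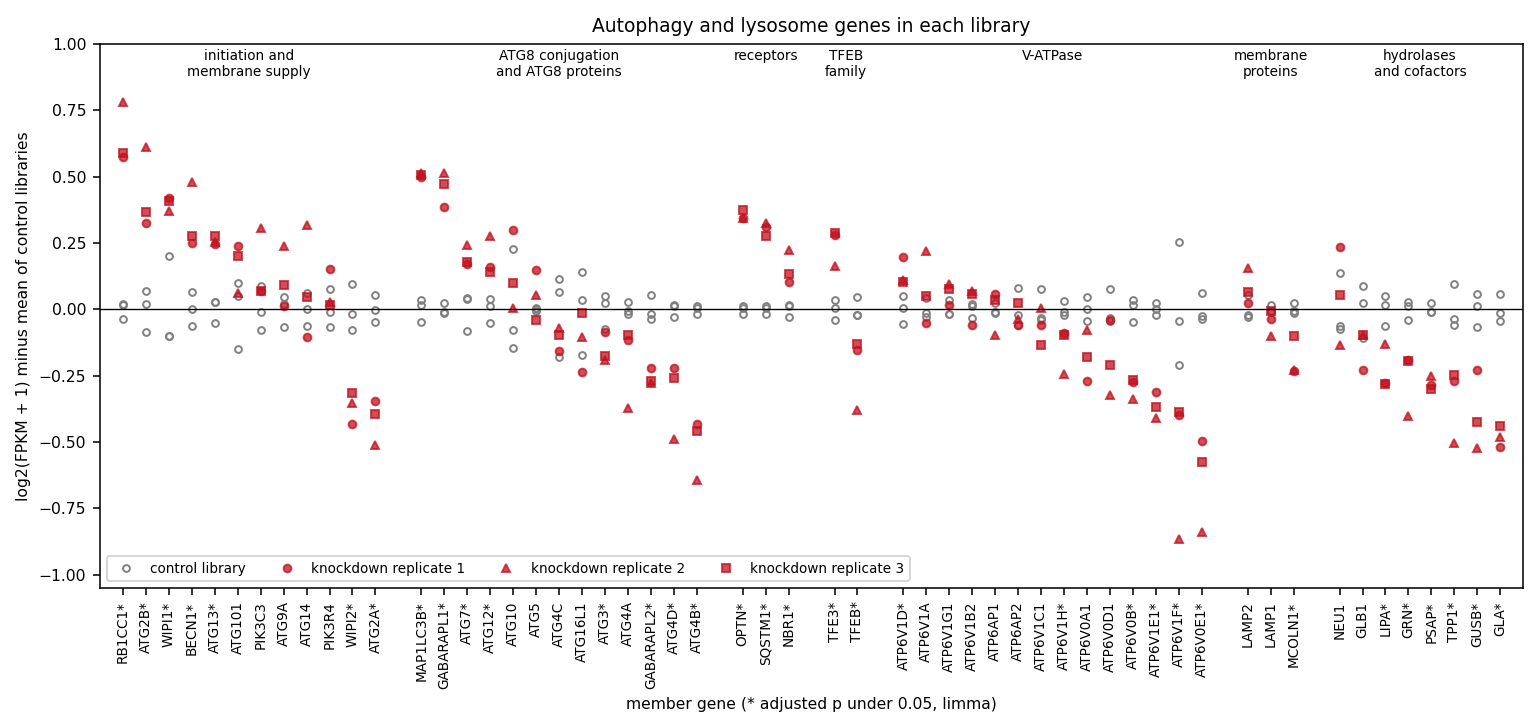
Log2(FPKM + 1) of each tested member in each library minus the mean of the 3 control libraries, grouped by class and ordered by change. Open circles are control libraries, filled symbols are knockdown libraries, and stars mark an adjusted p under 0.05. All 3 receptors lie above the control libraries and 6 of 8 hydrolases and cofactors below them. The groups did not overlap for 65.1% of all tested genes.

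Among the 12 genes of initiation and membrane supply, 5 rose and 2 fell, with a median log2 change of 0.16. That is 58.3% called, near the 57.4% of all tested genes. With a common sum 9 were higher and 2 lower, with a median of 0.30, while 43.4% of all tested genes were higher and 16.4% lower. ATG101, PIK3C3, PIK3R4 and ATG9A were the members of this class that gained a call. The kinase complex that starts the process contributed RB1CC1 and ATG13. RB1CC1 (ENSG00000023287), the large scaffold also called FIP200, stood at 18.0, 17.3 and 18.0 FPKM in control replicates 1 to 3 and at 26.9, 31.2 and 27.2 FPKM in knockdown. Every knockdown library lay far above every control library, and replicate 2 was the highest. The mean rose from 17.8 ± 0.41 to 28.4 ± 2.41 FPKM (SD, n = 3), a log2 change of 0.65 (SE 0.061, adjusted p 1.91e-05), the largest rise among the members. ATG13, the regulatory partner of the kinase ULK1, read 11.8, 11.1 and 11.8 FPKM in control and 13.9, 14 and 14.2 in knockdown. Its groups did not overlap either, and it rose by a log2 change of 0.26 (adjusted p 0.0017). The third member of this complex, ATG101, which stabilises ATG13, had means of 7.78 and 8.85 FPKM with overlapping groups (log2 change 0.17, adjusted p 0.0953).

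Of the 4 genes of the lipid kinase complex, which marks the membrane with phosphatidylinositol 3-phosphate, BECN1 rose and the other 3 did not pass. BECN1, the subunit through which the complex is regulated, read 5.6, 5.31 and 5.9 FPKM in control and 6.84, 8.19 and 6.98 in knockdown, without overlap. Its log2 change was 0.33 (SE 0.076, adjusted p 0.00387), and 17.1% of its exon bases overlap genes on the other strand, CNTD1 most of all. PIK3C3, the catalytic subunit, had a log2 change of 0.15 (adjusted p 0.161), PIK3R4, its membrane anchor, of 0.06 (adjusted p 0.409), and ATG14, which targets the complex to the forming cup, of 0.09 (adjusted p 0.493).

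The lipid transfer proteins ATG2A and ATG2B, which move lipids from the endoplasmic reticulum into the growing membrane, moved in opposite directions. ATG2A read 5.55, 5.3 and 5.12 FPKM in control and 3.97, 3.44 and 3.8 in knockdown. ATG2B read 2.79, 2.92 and 2.52 FPKM in control and 3.69, 4.72 and 3.83 in knockdown. Neither gene's groups overlapped, and replicate 2 was the most extreme knockdown library for both. ATG2A fell by 0.42 on the log2 scale (SE 0.070, adjusted p 0.000621) and ATG2B rose by 0.43 (SE 0.090, adjusted p 0.00222). Their summed level was 8.07 ± 0.378 FPKM in control and 7.81 ± 0.301 in knockdown, while the share of ATG2B in it was 34.0% ± 1.34 in control and 52.1% ± 5.12 in knockdown (SD, n = 3).

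WIPI proteins bind the phosphatidylinositol 3-phosphate on the cup and recruit further factors, and the 2 listed here also moved oppositely. WIPI2, which brings the ATG16L1 complex to the membrane, read 7.87, 9 and 8.25 FPKM in control and 5.93, 6.33 and 6.53 in knockdown, without overlap. It fell by 0.37 on the log2 scale (SE 0.067, adjusted p 0.00106). WIPI1 rose from 0.414 ± 0.176 to 0.854 ± 0.0339 FPKM (a log2 change of 0.40, adjusted p 0.00517), also without overlap. That value rests on 15 to 43 reads per library, and 28.1% of the exon bases of WIPI1 overlap other genes, mostly ARSG on the opposite strand. The relatives WDR45B and WDR45, no listed members and named after their values were seen, both rose (log2 changes 0.37 and 0.42, adjusted p 7.91e-05 and 0.00136). The summed level of WIPI1, WIPI2, WDR45 and WDR45B was 44.6 ± 1.1 FPKM in control and 54.2 ± 0.959 in knockdown. WDR45B made up 74.9% ± 0.21 and 80.2% ± 0.344 of it. ATG9A, the membrane protein of the seed vesicles, had means of 6.76 and 7.41 FPKM with overlapping groups (log2 change 0.11, adjusted p 0.202), and 38.8% of its exon bases are shared with AC068946.2 on the same strand.

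The ATG8 family and the enzymes that attach it counted 13 tested genes, of which 4 rose and 4 fell, with a median log2 change of -0.11. That is 61.5% called, near the 57.4% of all tested genes. Within the 3 listed ATG8 proteins the members parted: MAP1LC3B and GABARAPL1 rose, and GABARAPL2 fell. MAP1LC3B (ENSG00000140941, GRCh38 chr16:87383995-87404779, plus strand), which encodes LC3B, the most used marker protein of autophagic membranes, read 17.6, 18.4 and 18.7 FPKM in control and 26.1, 26.4 and 26.3 in knockdown. The 3 knockdown libraries lay close together and far above control, and the mean rose from 18.2 ± 0.579 to 26.3 ± 0.141 FPKM. The log2 change was 0.51 (SE 0.046, adjusted p 1.54e-05).

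GABARAPL1, an ATG8 protein of the GABARAP branch, read 25.3, 24.6 and 24.7 FPKM in control and 32.8, 35.9 and 34.8 in knockdown. It rose by a log2 change of 0.46 (SE 0.049, adjusted p 3.95e-05), with no overlap of the groups. GABARAPL2, of the same branch and also called GATE-16, read 16.7, 16.5 and 17.6 FPKM in control and 14.4, 13.8 and 13.9 in knockdown, again without overlap. It fell by 0.26 on the log2 scale (SE 0.050, adjusted p 0.00166), a call that did not hold with a common sum (log2 change -0.10, adjusted p 0.147). The summed FPKM of the 5 ATG8 genes in the table was 61.6 ± 1.06 in control and 76.4 ± 1.4 in knockdown. GABARAP had no values and is missing from this sum and from the shares in it. Shares in this sum were 29.6% ± 0.693 and 34.4% ± 0.45 for MAP1LC3B, 40.4% ± 1.08 and 45.2% ± 1.27 for GABARAPL1, and 27.5% ± 0.515 and 18.4% ± 0.742 for GABARAPL2. MAP1LC3A and MAP1LC3B2, which were added to the sum and are no listed members, each made up less than 2% of it in every library. MAP1LC3B2 is a near copy of MAP1LC3B, and how the deposited counts divided reads between them is not given in the sources used here.

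**Figure D2:**
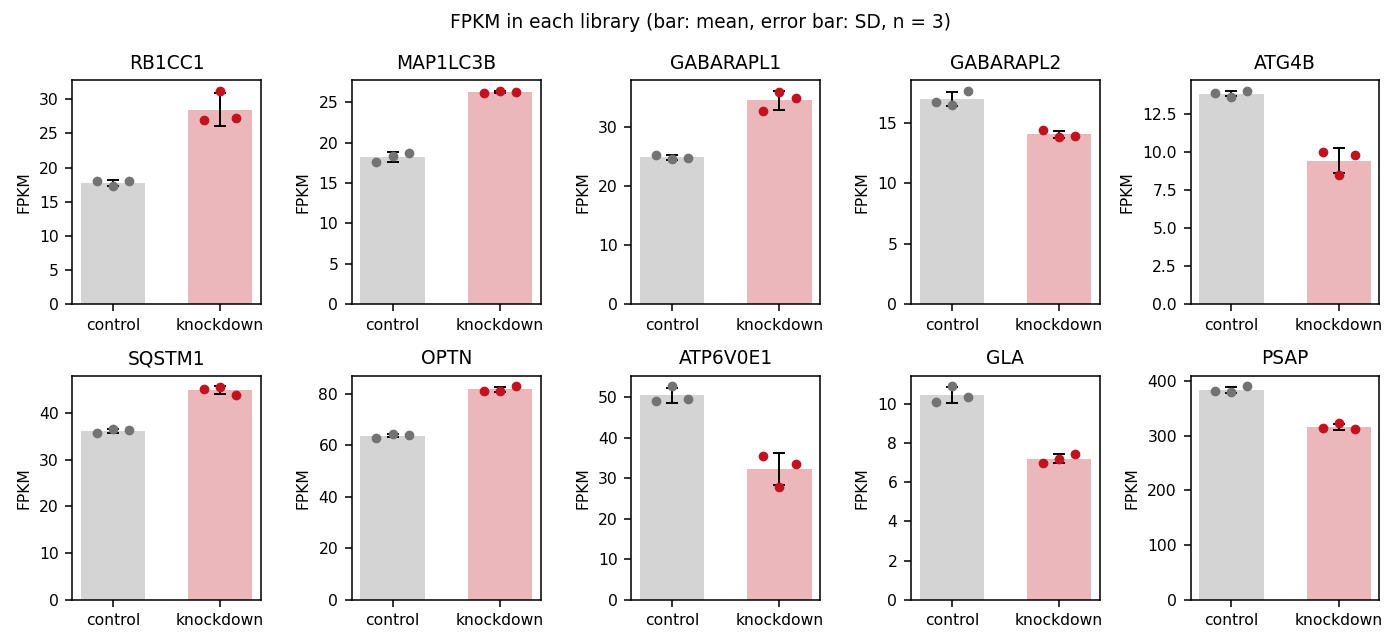
FPKM of 10 members in each library, with points for libraries, bars for the group mean and error bars for the SD (n = 3), each axis starting at 0. MAP1LC3B, GABARAPL1, RB1CC1, SQSTM1 and OPTN lie higher in all 3 knockdown libraries, and GABARAPL2, ATG4B, ATP6V0E1, GLA and PSAP lower, with no overlap in any panel.

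ATG4 proteases trim new ATG8 proteins for conjugation and take them off the membrane again. Of the 4, 2 fell and 0 rose, beside 27.8% and 29.5% of all tested genes. ATG4B (GRCh38 chr2:241637213-241673857, plus strand), which acts on all branches of the family, read 13.9, 13.7 and 14 FPKM in control and 10, 8.52 and 9.8 in knockdown. The groups lay far apart, and ATG4B fell by 0.51 on the log2 scale (SE 0.064, adjusted p 0.000111), the third largest fall among the members. ATG4D fell from 14.2 ± 0.259 to 11.1 ± 1.19 FPKM (a log2 change of -0.32, adjusted p 0.00337). ATG4A had a log2 change of -0.20 (adjusted p 0.0696) and ATG4C of -0.11 (adjusted p 0.285). The summed level of the 4 proteases was 38.3 ± 0.976 FPKM in control and 29.7 ± 2.28 in knockdown.

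The 6 conjugation enzymes and scaffolds moved less, with 2 called higher and 1 lower, beside 29.5% and 27.8% of all tested genes. ATG7, the activating enzyme, rose from 1.83 ± 0.135 to 2.24 ± 0.0849 FPKM (a log2 change of 0.20, adjusted p 0.0396). ATG12, the ubiquitin-like protein joined to ATG5, rose from 6.55 ± 0.249 to 7.62 ± 0.455 FPKM (a log2 change of 0.19, adjusted p 0.0256), and ATG3, the enzyme that passes ATG8 to its lipid, fell from 15.7 ± 0.756 to 14 ± 0.597 FPKM (a log2 change of -0.15, adjusted p 0.0398). These 3 calls were not firm: ATG7 lost its call in 9 of 14 settings, ATG3 in 6 of 15 and ATG12 in 4 of 15. Leaving out a library ended the call of ATG7 in each of the 6 cases (adjusted p 0.062 to 0.142). It ended that of ATG3 without control replicate 1 (0.144), control replicate 2 (0.119), knockdown replicate 2 (0.0586) or knockdown replicate 3 (0.103), and that of ATG12 without control replicate 1 (0.0973) or control replicate 3 (0.0631). ATG5, ATG10 and ATG16L1, which with ATG12 form or make the complex that directs conjugation, had log2 changes of 0.05, 0.13 and -0.12 with adjusted p of 0.474, 0.336 and 0.284.

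All 3 listed receptors rose, with a median log2 change of 0.30, while 29.5% of all tested genes rose. SQSTM1, the p62 receptor that binds ubiquitin and LC3 and is itself degraded with its cargo, read 35.7, 36.5 and 36.3 FPKM in control and 45.1, 45.6 and 44 in knockdown. OPTN, the receptor optineurin, read 62.9, 64.3 and 64.0 FPKM in control and 81.2, 81.1 and 82.9 in knockdown. Both genes were tight within groups and did not overlap between them. The log2 change was 0.30 for SQSTM1 (SE 0.042, adjusted p 0.000195) and 0.35 for OPTN (SE 0.041, adjusted p 6.25e-05). For SQSTM1, 22.0% of exon bases overlap genes on the other strand, MRNIP most of all. NBR1, a receptor related to SQSTM1, read 15.5, 15.6 and 15 FPKM in control and 16.6, 18.1 and 16.9 in knockdown, and rose by a log2 change of 0.15 (adjusted p 0.0274). The call of NBR1 ended without any single control replicate (adjusted p 0.0663, 0.061 and 0.101 without replicates 1, 2 and 3). It also ended when the trend over gene length was reduced (adjusted p 0.219).

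The paired transcription factors moved in opposite directions by small amounts. TFE3 read 20.9, 20.5 and 19.8 FPKM in control and 25, 23.0 and 25.1 in knockdown, without overlap, and rose by a log2 change of 0.24 (SE 0.052, adjusted p 0.00272). TFEB read 4.53, 4.27 and 4.27 FPKM in control and 3.81, 3.11 and 3.9 in knockdown, and fell by 0.22 on the log2 scale (SE 0.081, adjusted p 0.038). The fall of TFEB was not called with a common sum (adjusted p 0.363), without control replicate 1, 2 or 3 (0.117, 0.0741 and 0.0772), or without knockdown replicate 2, the lowest library (0.0777). TFE3 made up 82.4% ± 0.29 of the summed level of both genes in control and 87.1% ± 0.809 in knockdown. Transcript levels say nothing of where these proteins lie in the cell.

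The V-ATPase is built from a membrane part, V0, that carries protons and a cytosolic part, V1, that hydrolyses ATP. Of its 14 tested genes 1 rose, 5 fell and 8 did not pass, with a median log2 change of -0.10 that became 0.05 with a common sum, where 5 were higher and 4 lower. The share called was 42.9%, below the 57.4% of all tested genes, and the share lower was 35.7%, beside 27.8%. Of 4 tested V0 subunits 2 fell. ATP6V0E1 (ENSG00000113732, GRCh38 chr5:172983757-173035445, plus strand), a small membrane subunit, read 49.1, 52.7 and 49.5 FPKM in control and 35.5, 27.7 and 33.5 in knockdown. The groups lay far apart and replicate 2 was the lowest. The mean fell from 50.4 ± 1.97 to 32.2 ± 4.02 FPKM (a log2 change of -0.64, SE 0.080, adjusted p 0.000106), the largest fall among the members. ATP6V0B, a subunit of the proton-carrying ring, read 28.2, 26.9 and 28.5 FPKM in control and 22.8, 21.8 and 23.0 in knockdown. It fell by 0.29 on the log2 scale (SE 0.048, adjusted p 0.000517), without overlap. ATP6V0A1, an isoform of the proton channel subunit a, had means of 3.21 and 2.73 FPKM (a log2 change of -0.18, adjusted p 0.0675), and ATP6V0D1, of the stalk, of 7.80 and 6.72 FPKM (a log2 change of -0.19, adjusted p 0.0604).

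Of 8 V1 subunits 3 fell and 1 rose, beside 27.8% and 29.5% of all tested genes. ATP6V1E1, of the peripheral stalk, read 63.3, 64.4 and 65.4 FPKM in control and 51.6, 48.2 and 49.6 in knockdown. It fell by 0.36 on the log2 scale (SE 0.044, adjusted p 8.93e-05), with a wide gap between the groups. ATP6V1F, of the central rotor, read 33.1, 46.1 and 37.3 FPKM in control and 29, 20.7 and 29.2 in knockdown, and its libraries were scattered within both groups, which did not overlap. It fell by 0.55 on the log2 scale (SE 0.138, adjusted p 0.00652); its exons cover only 789 bases, 23.7% of which overlap KCP on the opposite strand. ATP6V1H, a regulatory subunit (log2 change -0.14, adjusted p 0.0476), and ATP6V1D, of the rotor (log2 change 0.14, adjusted p 0.0469), passed narrowly and lost their calls in 9 of 15 and 7 of 15 settings. With each library left out in turn, ATP6V1H kept its call only without knockdown replicate 1 (adjusted p 0.0404) and otherwise had 0.0524 to 0.148, and ATP6V1D kept it only without knockdown replicate 2 (0.0275) and otherwise had 0.0575 to 0.175. The catalytic subunit ATP6V1A, the nucleotide-binding ATP6V1B2, and the stalk subunits ATP6V1C1 and ATP6V1G1 did not pass, with log2 changes between -0.06 and 0.07. The accessory proteins ATP6AP1 and ATP6AP2 did not pass either, with log2 changes of -0.00 and -0.02 (adjusted p 0.967 and 0.737).

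ATP6V0C, the main ring subunit, was listed at 0.0463, 0.25 and 0.402 FPKM in control and 0.217, 0.274 and 0.355 in knockdown, from 1 to 8 reads per library. Its annotated exons share 72.1% of their bases with other genes on the same strand in GENCODE release 29, AC093525.2 most of all, and the counting of such reads is not given in the sources used here. Its level was therefore not read as a level of its transcript.

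**Figure D3:**
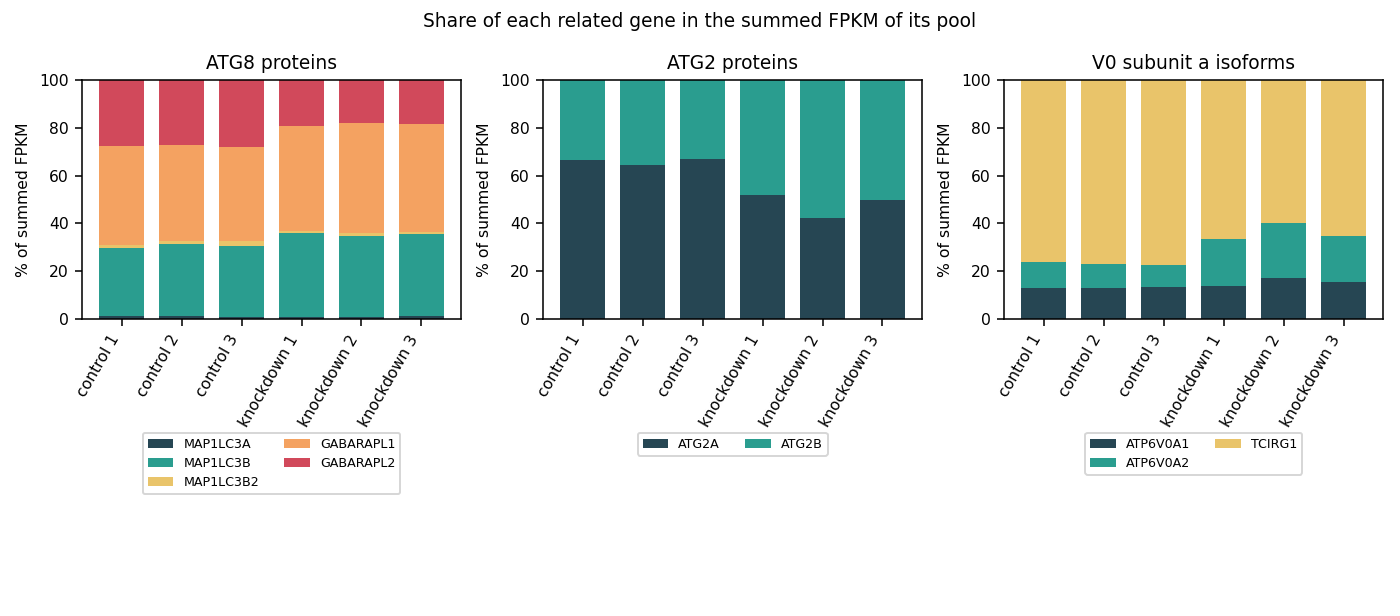
Share of each gene in the summed FPKM of ATG8 proteins, ATG2 proteins and isoforms of V0 subunit a, with a bar per library. The share of GABARAPL2 is smaller in all 3 knockdown libraries, that of ATG2B larger, and that of TCIRG1 smaller beside a larger share of ATP6V0A2. GABARAP had no values and is missing from the ATG8 sum.

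Among the 3 lysosomal membrane proteins 0 rose and 1 fell (33.3%, beside 27.8% of all tested genes). LAMP1, a main glycoprotein of the lysosomal membrane, read 82.6, 81.1 and 81.2 FPKM in control and 79.5, 76.0 and 81.2 in knockdown, with overlapping groups. Its log2 change was -0.05 (adjusted p 0.36) and became 0.12 with a common sum (adjusted p 0.032). LAMP2, its relative with a part in fusion and chaperone-mediated autophagy, had means of 17.6 and 18.7 FPKM (a log2 change of 0.08, adjusted p 0.221). MCOLN1, the lysosomal calcium channel, read 2.35, 2.38 and 2.44 FPKM in control and 1.89, 1.89 and 2.16 in knockdown, and fell by 0.19 on the log2 scale (adjusted p 0.0453). That call was lost in 9 of 14 settings, among them each library left out except knockdown replicate 3 (adjusted p 0.0337 without it, and 0.0787 to 0.123 without any other).

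Of the 8 tested hydrolases and cofactors 6 fell, 0 rose and 2 did not pass, with a median log2 change of -0.27. That is 75% lower, beside 27.8% of all tested genes. With a common sum 3 of them, GLA, GUSB and TPP1, stayed called lower and 0 were higher, while 16.4% of all tested genes were lower. With the trend over gene length reduced, though not fully removed, 6 were called lower. GLA (ENSG00000102393, GRCh38 chrX:101397803-101408012, minus strand), the alpha-galactosidase deficient in Fabry disease, read 10.1, 10.9 and 10.3 FPKM in control and 7, 7.21 and 7.44 in knockdown. The groups were well separated, and GLA fell by 0.48 on the log2 scale (SE 0.057, adjusted p 7.8e-05). GUSB, the beta-glucuronidase, read 16.1, 16.7 and 15.2 FPKM in control and 13.5, 10.8 and 11.7 in knockdown and fell by 0.39 (adjusted p 0.00145). TPP1, a tripeptidyl peptidase, read 11.4, 12.6 and 11.3 FPKM in control and 9.6, 8 and 9.75 in knockdown and fell by 0.34 (adjusted p 0.00406). Neither gene's groups overlapped; 14.4% of the exon bases of TPP1 overlap other genes.

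The most abundant member was PSAP, the precursor of the saposins that help hydrolases reach sphingolipids. It read 381, 381 and 390 FPKM in control and 315, 323 and 311 in knockdown, a fall of the mean from 384 ± 5.4 to 316 ± 5.72 FPKM. GRN, the precursor of lysosomal granulins, read 120, 124 and 125 FPKM in control and 107, 92.6 and 107 in knockdown. LIPA, the acid lipase, read 35.0, 32.3 and 34.2 FPKM in control and 27.7, 30.7 and 27.6 in knockdown. None of these 3 genes overlapped between groups, and their log2 changes were -0.28 for PSAP (adjusted p 0.000571), -0.26 for GRN (adjusted p 0.00421) and -0.23 for LIPA (adjusted p 0.00543). With a common sum the calls of these 3 ended, with log2 changes of -0.11 for PSAP, -0.10 for GRN and -0.07 for LIPA and adjusted p of 0.0549, 0.0991 and 0.394. For PSAP the call also ended under quantile normalization (log2 change -0.03, adjusted p 0.608).

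GLB1, the beta-galactosidase, had means of 12.3 and 11 FPKM (a log2 change of -0.14, adjusted p 0.0929), and NEU1, the sialidase that works in a complex with it, of 7.06 and 7.38 FPKM (a log2 change of 0.05, adjusted p 0.672), both with overlapping groups. HEXA, the alpha subunit of hexosaminidase, was listed at 0.446, 0.405 and 0.443 FPKM in control and 0.416, 0.423 and 0.406 in knockdown, from 86 to 108 reads per library, and was below the level tested. HEXA overlaps other genes over 16.3% of its exon bases, and the part of this overlap in its level was not tested.

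Other genes of the same pathways, taken from lists of 102 genes in the table, gave 31 higher and 27 lower of 96 tested (60.4%, near the 57.4% of all genes), with a median log2 change of 0.04. They gave 47 higher and 15 lower with a common sum, with a median of 0.16. Beside the lists below, 29.5% of all tested genes were higher and 27.8% lower, and 43.4% and 16.4% with a common sum. The other hydrolases and delivery factors had 4 higher and 16 lower of 32, with a median of -0.16. NPC2, the lumenal cholesterol carrier, fell from 37.9 ± 1.44 to 16.5 ± 0.802 FPKM (a log2 change of -1.16, SE 0.053, adjusted p 1.99e-07). IGF2R, the mannose 6-phosphate receptor that delivers hydrolases to the lysosome, rose from 5.12 ± 0.0719 to 10.4 ± 0.985 FPKM (a log2 change of 0.90, SE 0.070, adjusted p 5.8e-06). With a common sum this list had 10 higher and 9 lower of 32.

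The other membrane proteins had 7 higher and 2 lower of 15, with LAMP3, a relative of LAMP1, rising from 12.3 ± 0.577 to 27.4 ± 1.5 FPKM (a log2 change of 1.09, adjusted p 4.64e-07). These were 9 higher and 0 lower with a common sum. The other receptors and fusion factors had 8 higher and 3 lower of 20, and 13 higher and 1 lower with a common sum. Among them TAX1BP1, a receptor that acts beside SQSTM1 and NBR1, rose from 11.9 ± 0.199 to 18.8 ± 0.758 FPKM (a log2 change of 0.62, adjusted p 8.51e-06). The other autophagy factors had 7 higher and 2 lower of 14, and ATG16L2, a relative of ATG16L1, fell from 5.07 ± 0.255 to 2.59 ± 0.0178 FPKM (a log2 change of -0.76, adjusted p 1.17e-05). Of the relatives and regulators of TFEB 0 of 4 passed under limma, where 1 had an unadjusted p under 0.05, and 2 of 4 were higher by voom on recovered reads.

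The other V-ATPase subunits and assembly factors had 5 higher and 4 lower of 11. DMXL1, which helps to assemble V1 with V0, rose from 2.62 ± 0.0891 to 4.91 ± 0.788 FPKM (a log2 change of 0.70, adjusted p 0.000153). TCIRG1, the a3 isoform of V0 subunit a, fell from 18.9 ± 0.875 to 11.3 ± 0.78 FPKM (a log2 change of -0.70, adjusted p 1.32e-05). Beside the member ATP6V0A1, the isoform ATP6V0A2, named after its values were seen, rose from 2.43 ± 0.101 to 3.67 ± 0.341 FPKM (a log2 change of 0.44, adjusted p 0.000711). The summed level of the 3 isoforms was 24.5 ± 0.926 FPKM in control and 17.7 ± 0.256 in knockdown. The share of TCIRG1 in it was 77.0% ± 0.675 in control and 63.7% ± 3.61 in knockdown, and that of ATP6V0A2 was 9.92% ± 0.742 and 20.8% ± 2.14.

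Changes moved with gene length in the members and in the whole table. The correlation of the log2 change with the log10 of exon length was 0.40 (Spearman 0.32) over 55 members and 0.26 (Spearman 0.30) over 11209 genes, across genes that share the same libraries and are no replicates. All genes were parted by length into 3 bins of near equal size. The median log2 change was -0.13 in the bin of short genes (up to 3825 bases), 0.01 in the middle bin and 0.12 in the bin of long genes (6559 bases or more). Of 14 members among the short genes 1 rose and 9 fell, of 26 in the middle bin 6 rose and 7 fell, and of 15 among the long genes 7 rose and 3 fell. All genes leaned the same way: in the short bin 686 rose and 1560 fell of 3737. In the middle bin 1099 rose and 994 fell of 3736, and in the long bin 1527 rose and 567 fell of 3736. The median exon length was 4364 bases for hydrolases and cofactors and 7654 bases for receptors. ATG2A, WIPI2 and ATG4B fell although they lay among the long genes, and GABARAPL2, ATP6V0E1, ATP6V1F and GLA were among the short members that fell. With the trend of each library over length reduced, 13 members rose and 20 fell. Libraries were corrected in turn against a mean that held libraries already corrected, so part of the trend was left in. The part of length in these changes beyond that setting was not tested.

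**Figure D4:**
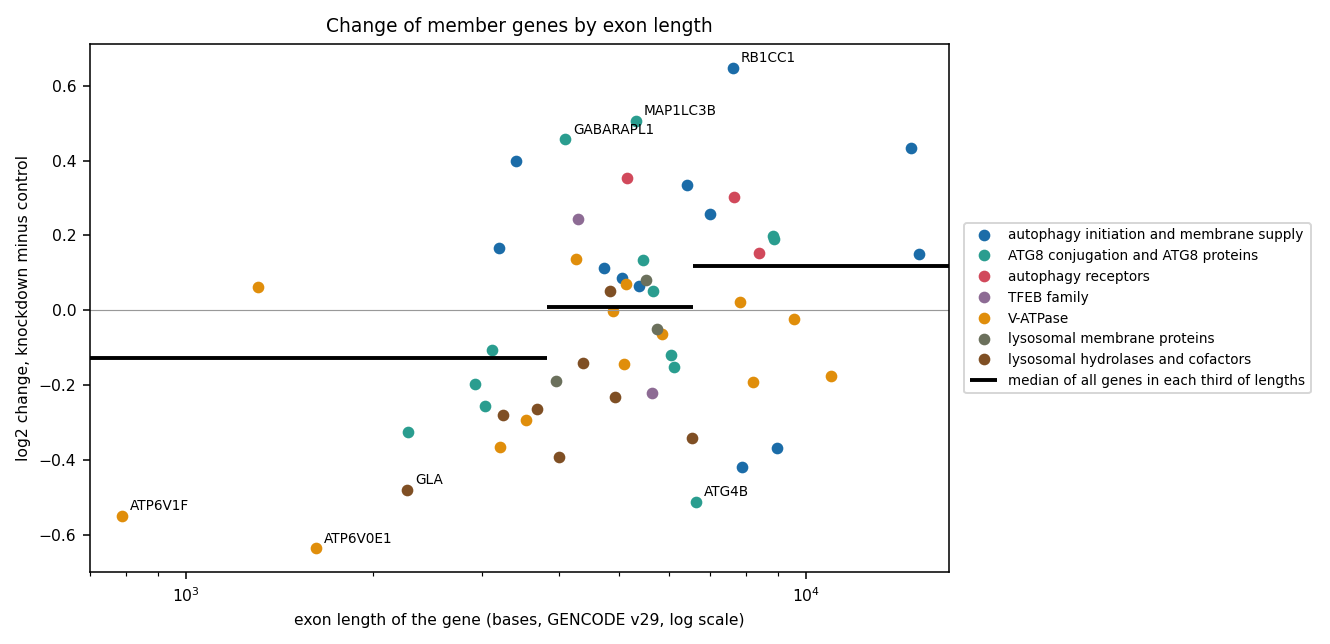
Log2 change (knockdown minus control) of each tested member against its exon length in bases on a log axis, coloured by class; black lines are the medians of all genes in 3 bins of length with near equal numbers of genes. The lines lie at -0.13, 0.01 and 0.12, and members fall on both sides of them in every bin.

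Promoter letters were searched for the motif that TFEB and TFE3 are known to bind in lysosomal genes, CACGTG and its longer form TCACGTGA, both palindromes that read the same on either strand. In RefSeq windows on GRCh38.p14, the 250 bases before the start held CACGTG in 8 of 59 windows from 47 matched members (13.6%), beside 6.34% of 35116 windows of all genes. TCACGTGA, which contains CACGTG, was held by 4 of the 59 windows (6.78%), beside 0.854% of all windows. Because the motif is known from lysosomal genes, larger shares among the members are no independent result. The 8 members were ATP6V0B, ATG3, NEU1, ATP6V1G1, LAMP1, ATG14, ATP6V0D1 and MCOLN1. Of these, 3 were called, all lower: ATP6V0B (log2 change -0.29), MCOLN1 (-0.19) and ATG3 (-0.15), the last 2 by calls that several settings ended. Of all tested genes 57.4% were called and 27.8% were lower, so 3 of 8 is no result about holders of the motif. Their stretches are shown 5′ to 3′ on the gene's strand, with the motif in capitals, because they are the called members that hold it:
ATP6V0B: ggtCACGTGgtaccggcgcatCACGTGggc
MCOLN1: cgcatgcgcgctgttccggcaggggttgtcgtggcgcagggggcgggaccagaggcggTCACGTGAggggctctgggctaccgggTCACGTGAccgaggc
ATG3: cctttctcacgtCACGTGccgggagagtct

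The stretch of ATP6V0B is chr1:43974900-43974929 on the plus strand, with motifs that begin 57 and 39 bases before the RefSeq start of that window. That of MCOLN1 is chr19:7522524-7522623 on the plus strand, and the CACGTG of its motifs, both of the longer form, begins 41 and 14 bases before its RefSeq start. That of ATG3 is chr3:112561963-112561992 on the minus strand, with 1 motif that begins 18 bases before its RefSeq start. GENCODE release 29 also has transcripts of ATP6V0B and ATG3 that start further upstream, and the stretches shown for both lie inside exons of those transcripts, so only 30 bases are given for each. The stretch of MCOLN1 lies in no annotated exon of that gene. The other 3 holders of the longer motif, ATP6V1G1, LAMP1 and ATP6V0D1, did not pass, with log2 changes of 0.06, -0.05 and -0.19. A match describes these letters and is not evidence of binding.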

How the data were processed

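TRIzol extraction and a TruSeq kit gave 6 libraries of HaCaT cells, per the labels' protocols; groups came from the sample labels. The authors deposited an FPKM value per gene and library. HISAT2 2.2.1 and GRCh38 are named in the submitters' processing notes; the counter, annotation and strand setting: not given in the sources used here. Reads of overlapping genes and near copies may have been divided or dropped: 12 members overlap other genes over more than 10% of their exon bases in GENCODE release 29, to which 12818 genes matched by identifier.

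Whole reads were recovered from the steps between FPKM values for 12828 of 12829 genes, within a tolerance of 0.004 reads, and gave the depths and the input of an alternative test. The test was limma 3.58.1 (R 4.3.3) fitted to log2(FPKM + 1), pseudocount 1, over the 11214 genes that averaged 0.5 FPKM or more. The fit had group as its only factor and a mean-variance trend; it was two-sided, with Benjamini-Hochberg adjustment over all tested genes and a threshold of 0.05. Log2 changes on this scale understate those of low genes. IQGAP2, below the filter, was added to the fit. The script was tested on simulated data. The same-numbered libraries did not deviate together (r -0.067, -0.038 and 0.019), so the numbers were not used as pairs.

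The members and lists were chosen with earlier results of these data known. Named were all members, IQGAP2, and the 4 largest rises and falls past the threshold without overlap among other pathway genes, of which 1 fall is not reported here; promoters are those of called members that hold the motif. Counts by subunit group and summed levels of related genes were added after values were seen and carry no test. Alternatives were pseudocounts of 0.1 and 0.5, no filter, a filter at 5 FPKM, a common sum and quantile normalization. Further ones were a reduction of the length trend, voom on recovered reads, a replicate block, and leaving out each library. No protein sequences were used here.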

Additional observations from a re-analysis of the deposited data

How the results depend on the processing

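Pseudocounts of 0.1 and 0.5 and testing without a filter on low values left every count of members by class within 1.5 times that reported. The other settings moved the following. With a common sum of FPKM, where the median of all genes was 0.14, 1838 of all genes were lower, and members were 25 higher and 11 lower with a median of 0.13. The counts by class were then 9 higher for autophagy initiation and membrane supply, 2 lower for ATG8 conjugation and ATG8 proteins, 0 lower for the TFEB family, 5 higher for V-ATPase, 2 higher and 0 lower for lysosomal membrane proteins, and 3 lower for lysosomal hydrolases and cofactors. Its log2 changes were of the opposite sign for ATG3 (0.0042), ATG4C (0.035), ATG16L1 (0.025), ATP6V1C1 (0.092), ATP6V1H (0.013), ATP6AP1 (0.16, adjusted p 0.019), ATP6AP2 (0.13), LAMP1 (0.12, adjusted p 0.032) and GLB1 (0.012). The filter at 5 FPKM, which tests fewer genes, left 3 higher and 1 lower for autophagy initiation and membrane supply, 0 lower for the TFEB family and 0 lower for lysosomal membrane proteins. Quantile normalization gave 2 higher for ATG8 conjugation and ATG8 proteins, and a log2 change of 0.021 for ATP6AP1. Reduction of the length trend gave 2 higher for ATG8 conjugation and ATG8 proteins, 2 higher for V-ATPase and 0 lower for lysosomal membrane proteins. Its log2 changes were -0.0051 for PIK3C3 and -0.049 for ATP6V1B2. Voom on recovered reads gave 0 higher for V-ATPase and 0 lower for lysosomal membrane proteins. The replicate block gave 12 members higher and 17 lower, of all genes 3167 higher and 3024 lower, 0 higher for V-ATPase and 0 lower for lysosomal membrane proteins; the numbers did not pair the libraries. Leaving out each library in turn gave 2 to 3 higher for ATG8 conjugation and ATG8 proteins, 0 to 1 lower for the TFEB family, 0 to 1 higher for V-ATPase, 0 to 1 lower for lysosomal membrane proteins, and a members' median of -0.049 to 0.0093. Log2 changes then ran from -0.23 to -0.22 for IQGAP2, with an adjusted p of up to 0.0556, from -0.029 to 0.18 for ATG14, -0.0018 to 0.13 for ATP6V1A, -0.0010 to 0.064 for ATP6V1B2, -0.032 to 0.045 for ATP6AP1, -0.054 to 0.015 for ATP6AP2 and -0.041 to 0.14 for NEU1. The cause of these shifts was not tested. Depth limits WIPI1, IQGAP2 and ATP6V0C, whose values rest on few reads.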
